A study of Mus musculus with 6 samples.

Results

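Glutathione and antioxidant enzymes are described here in mouse lung, as all genes whose symbol begins as those of glutathione transferases (Gst of the alpha, kappa, mu, omega, pi and theta classes), microsomal glutathione transferases (Mgst), glutathione peroxidases (Gpx), peroxiredoxins (Prdx), superoxide dismutases (Sod), thioredoxin proteins (Txn), sulfiredoxin (Srxn) or quinone reductases (Nqo), together with Gclc, Gclm, Gsr and Gss. The rule found 61 genes of the 18193 measured, in 14 families, and it looks only at names and not at measured values. It also takes in 12 proteins that carry a thioredoxin fold but work elsewhere, such as in the endoplasmic reticulum, and these are kept apart as thioredoxin-domain proteins. The data are log2 expression values made with RMA, which corrects, normalizes and sums the probes of an Affymetrix array into probe sets. Lungs came from 2 CC10-rtTA-IL13 transgenic mice (TG) and 4 wildtype mice (WT), all C57BL/6 and 6 to 10 weeks old. The labels give an array for each biological replicate and do not say whether animals were pooled. In the TG line the club cell promoter CC10 drives rtTA, the activator that needs doxycycline, and so IL13, a cytokine of allergic inflammation, is made in the airway. Both genotypes drank doxycycline at 2 mg/mL for 7 days, so the drug is shared and TG and WT differ in the transgene. RNA was from the left upper lobe, a mixture of all lung cells, in which fewer cells of a type and less RNA per cell cannot be told apart.

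Glutathione is a small thiol that cells make from glutamate, cysteine and glycine. Glutamate-cysteine ligase (Gclc with its modifier Gclm) makes the bond that limits the rate, glutathione synthetase (Gss) completes it, transferases use it to tag reactive compounds, peroxidases use it to remove peroxides, and glutathione reductase (Gsr) returns the oxidized form. Peroxiredoxins and thioredoxins form a parallel system, superoxide dismutases feed hydrogen peroxide to both, and the transcription factor NRF2 (Nfe2l2) raises many of these genes through a short DNA element, the antioxidant response element. Club cells of the airway are rich in enzymes that handle inhaled chemicals, and the lung secretes an extracellular superoxide dismutase.

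Genes were tested with limma, p-values were adjusted by Benjamini and Hochberg's method across the 18193 genes, and an adjusted p under 0.05 counted as passing. A difference is TG minus WT on the log2 scale, followed by its SE (n = 2 and 4). Array medians lay between 5.28 and 5.31, and arrays correlated across genes at r = 0.987 to 0.994 within a genotype and 0.967 to 0.973 between genotypes. The Il13 probe set read 4.24 and 4.09 in TG and 3.72 to 4.03 in WT, which is 0.32 ± 0.12 higher in TG and short of the threshold (adjusted p = 0.113). The labels do not say whether this probe set reads the transgene, so its level does not check the genotype. Markers of lung were bright, with the surfactant gene Sftpc at 15.15 in TG and 15.12 in WT.

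In TG lungs 15 of the 61 members passed, some higher and some lower. Gclc, the catalytic subunit of glutamate-cysteine ligase, rose 3.55-fold, and Gsr, the thioredoxin Txn1, the peroxiredoxin Prdx4, the microsomal transferase Mgst2, the transferase Gstp3 and the mitochondrial Sod2 rose by less than 2-fold. The transferases Gsta2 and Gsta3 of the alpha class fell 2.87-fold and 2.25-fold, and Gstm2, the peroxidases Gpx3, Gpx7 and Gpx8, the cytosolic Sod1 and Txndc16 fell by less. Of 61 members 7 passed as higher (11.5%) and 8 as lower (13.1%), where 8.43% and 10.5% of all genes passed in these directions and 19% in either. Shares this near the background are not a result about the class as a whole. The same shares of all genes apply to the family and marker counts below. At least 2-fold as well, 1 member was higher and 2 were lower, against 3.02% and 1.91% of all genes. The median difference over the members was -0.0014, against -0.0047 over all genes, whereas the median size of the difference, ignoring its sign, was 0.309 against 0.206. TG and WT values did not overlap for 32 members (52.5%), where 41.7% of all genes did not overlap. Members were brighter, with array means of 8.64 to 8.79 against 6.59 to 6.61 over all genes. Genes of matched brightness were not compared, so the larger size and share are not a result about the class.

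**Figure D1:**
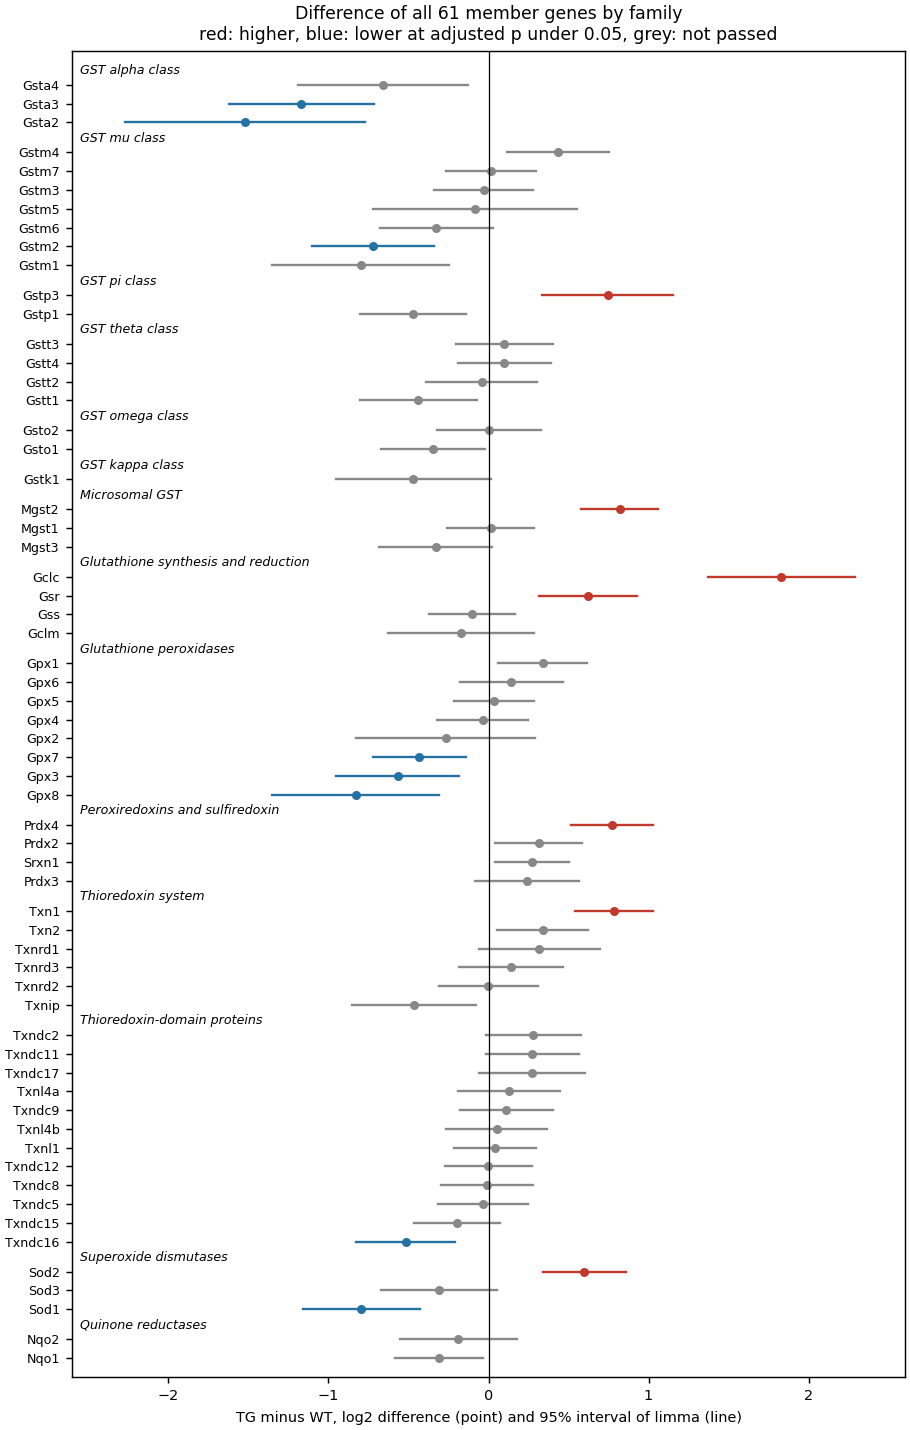
Each point is the TG minus WT log2 difference of a member gene and each line its 95% interval from limma, sorted by family. Red members were higher and blue members lower at an adjusted p under 0.05, and grey members did not pass. Gclc stands at 1.83, apart from the other rises, which end at 0.82, and Gsta2 at -1.52 and Gsta3 at -1.17 lead the falls.

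The counts changed when single arrays were left out, for all genes as well as for the members. With 1 WT array left out 6 to 8 members passed as higher, with 1133 to 1578 of all genes in place of 1534. Without TG replicate 1 or 2 both counts were lower than with all arrays. The count of 8 lower members was 1 without TG replicate 1, 2 without TG replicate 2, 3 without WT replicate 1 and 4 without WT replicate 3, while the 1914 lower calls among all genes were 580, 860, 1245 and 1418. Without WT replicate 4, 12 members and 1980 of all genes were lower. Leaving out a TG array leaves 1 TG sample, whose spread is then taken from the WT arrays alone, and the differences of the 15 called members in these fits were 0.66 to 1.34 times those with all arrays. Over 20 other ways to process or subset the arrays, Gclc, Mgst2, Prdx4 and Txn1 passed as higher each time, and each of the other 11 called members failed to pass in at least 1. Of the 46 members that did not pass, 44 had a 95% interval inside a 2-fold change in either direction, and the interval of the other 2, Gsta4 and Gstm1, reached past a 2-fold fall. For 7 members both group means lay below 5.29, the median of all values, where an array separates levels poorly. These are Gstm6, Gstm7, Gsto2, Gstt4, Gpx6, Txndc2 and Txndc8, and none of them passed.

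Promoters are shown for 3 members that are read against the NRF2 element, a fallen, an uncalled and a risen one, to show how a match looks beside its change. The letters searched were TGACNNNGC, the core of the antioxidant response element, on both strands, in windows from 250 bases before to 50 bases after a RefSeq transcript start (GRCm38.p6). Windows were given for 54 of the 61 members. The risen Gclc and Gsr had none, nor did Gsta4, Gstt2, Sod3, Txnl1 and Txnl4a, so their promoters were not searched. Capitals mark the match.
Gsta3 (chr1:21240335-21240634, plus strand, fell): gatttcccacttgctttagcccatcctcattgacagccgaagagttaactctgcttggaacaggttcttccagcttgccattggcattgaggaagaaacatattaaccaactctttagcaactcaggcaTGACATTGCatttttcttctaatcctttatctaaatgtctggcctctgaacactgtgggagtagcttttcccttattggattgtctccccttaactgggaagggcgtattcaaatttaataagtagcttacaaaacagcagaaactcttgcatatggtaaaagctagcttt
Gclm (chr3:122245307-122245606, plus strand, did not pass): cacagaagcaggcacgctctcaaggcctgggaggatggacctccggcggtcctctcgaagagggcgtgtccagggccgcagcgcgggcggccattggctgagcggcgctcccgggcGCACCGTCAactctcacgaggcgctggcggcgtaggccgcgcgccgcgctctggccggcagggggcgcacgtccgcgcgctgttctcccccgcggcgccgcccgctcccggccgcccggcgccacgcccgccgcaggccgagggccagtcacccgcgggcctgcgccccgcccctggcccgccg
Txn1 (chr4:57956362-57956661, minus strand, rose): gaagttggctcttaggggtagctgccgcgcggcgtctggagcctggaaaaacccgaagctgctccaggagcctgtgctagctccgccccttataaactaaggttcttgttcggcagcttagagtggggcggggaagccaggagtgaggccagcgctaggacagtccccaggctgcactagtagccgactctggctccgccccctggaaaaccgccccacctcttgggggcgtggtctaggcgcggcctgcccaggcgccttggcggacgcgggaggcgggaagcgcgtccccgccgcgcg
Counted from the transcript start, the leftmost base of the match is at -121 in Gsta3 and at -134 in Gclm, where it is on the opposite strand, and the Txn1 window holds none. Of the 54 members 11 held a match (20.4%), against 14% of the 27025 genes with a window. A match was found in 0 of 5 risen members with a window, 2 of 8 fallen members (Gsta3 and Sod1) and 9 of 41 members that did not pass. These letters occur in many promoters, elements farther from the start are outside these windows, and a match is not evidence of binding.

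Glutathione synthesis and recycling moved unevenly. Gclc, the catalytic subunit, read 11.70 and 11.79 in TG and 9.87, 10.34, 9.94 and 9.51 in WT replicates 1 to 4. Both TG arrays stood above every WT array by more than the WT arrays differed among themselves, and the difference was 1.83 ± 0.20 (adjusted p = 0.000663). Its other probe set also passed, with a difference of 1.57 ± 0.15. Gclm, the modifier subunit that makes the ligase more efficient, read 8.27 and 8.38 in TG and 8.20 to 8.97 in WT. Its TG values lay inside the WT range, and the difference of -0.17 ± 0.20 did not pass (adjusted p = 0.605). The 95% interval for Gclm ran from -0.63 to 0.28 and that for Gclc from 1.37 to 2.29, so the intervals of the subunits of the same enzyme did not meet. The dimmer Gclm probe set read 6.91 and 6.82 in TG and 7.10 to 7.44 in WT, with no overlap. Its difference of -0.37 ± 0.13 did not pass (adjusted p = 0.113 over all probe sets). Gsr, which restores glutathione with NADPH, read 9.33 and 9.30 in TG and 8.48, 8.89, 8.63 and 8.78 in WT. Both TG values exceeded all WT values, and the difference was 0.62 ± 0.13 (adjusted p = 0.0143), although it did not pass without TG replicate 1 (adjusted p = 0.103) or 2 (0.0776). The other Gsr probe set was also higher, by 0.66 (SE 0.20), without passing (adjusted p = 0.0731 over all probe sets). Gss, the last step of synthesis, differed by -0.10 ± 0.12 (adjusted p = 0.598), with an interval from -0.37 to 0.17.

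**Figure D2:**
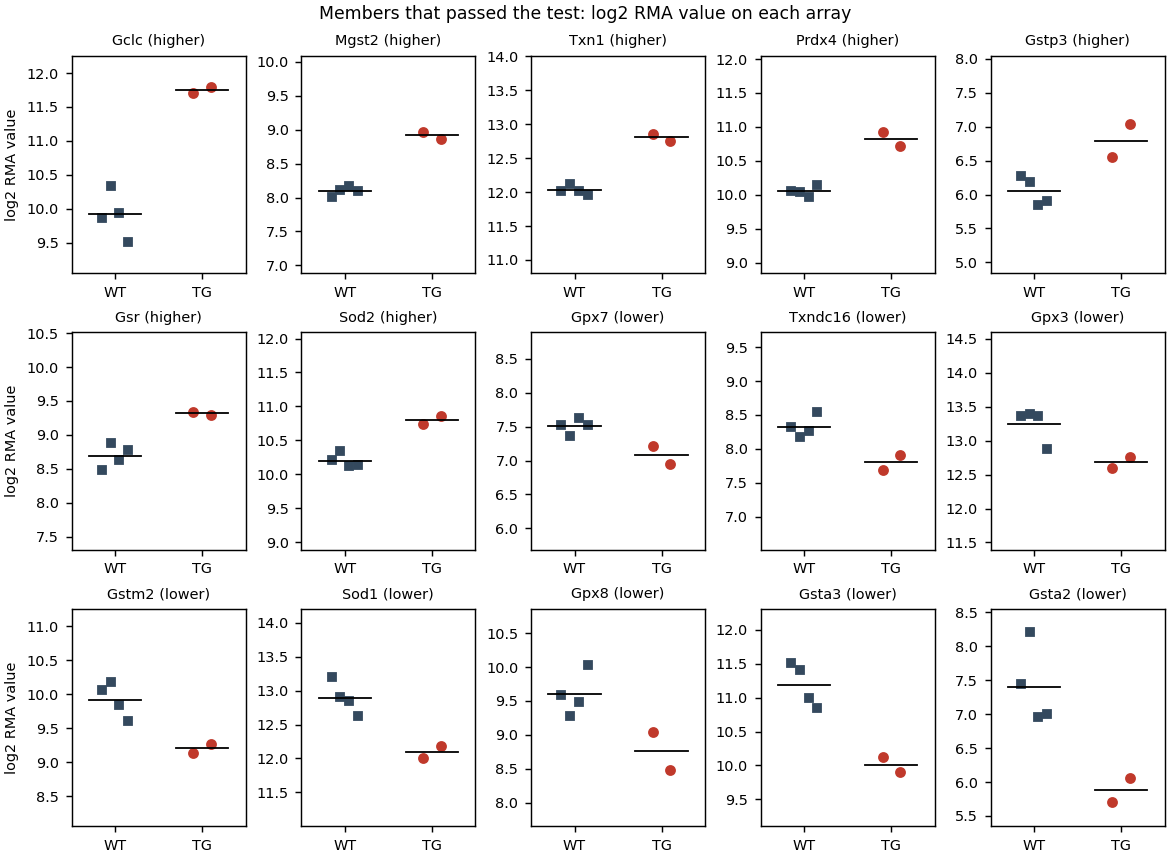
Log2 RMA values on each array for the 15 members that passed, with WT replicates 1 to 4 as squares from left to right, TG replicates 1 and 2 as circles, and group means as lines. Every vertical axis spans the same range, so steps can be compared between panels, and in none of the 15 panels do TG and WT overlap.

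The alpha class of glutathione transferases, which detoxifies electrophiles and lipid peroxides, had 2 of 3 members lower and none higher. Of all genes 10.5% passed as lower and 8.43% as higher. Gsta2 read 5.70 and 6.06 in TG and 7.45, 8.21, 6.95 and 7.00 in WT. WT replicate 2 was the highest array and both TG arrays were the lowest, and the difference was -1.52 ± 0.33 (adjusted p = 0.0144), lost without TG replicate 1 (adjusted p = 0.129) or 2 (0.0603). Gsta3 read 10.12 and 9.91 in TG and 11.51, 11.40, 10.99 and 10.84 in WT, a difference of -1.17 ± 0.20 (adjusted p = 0.00515). Its other probe set was also lower, by 1.23 (SE 0.13), and the call was lost without TG replicate 2 (adjusted p = 0.0545). Gsta4, which acts on the lipid peroxidation product hydroxynonenal, read 9.74 and 9.46 in TG and 9.93 to 10.80 in WT. Groups did not overlap for Gsta4, but the difference of -0.66 ± 0.23 did not pass (adjusted p = 0.0868).

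Among the 7 transferases of the mu class 1 was lower and 0 were higher, against 10.5% and 8.43% of all genes. Gstm2 read 9.14 and 9.26 in TG and 10.06, 10.18, 9.85 and 9.61 in WT. The difference was -0.72 ± 0.17 (adjusted p = 0.0186), with no overlap of the groups, and it was lost without TG replicate 1 (adjusted p = 0.139), TG replicate 2 (0.0793) or WT replicate 1 (0.0511). Gstm1 read 9.85 and 10.49 in TG and 10.54 to 11.35 in WT, a difference of -0.80 ± 0.24 just above the threshold (adjusted p = 0.0515). All 4 probe sets of Gstm1 were lower in TG, and 1 of them passed when each probe set was tested by itself. Gstm4 was the member of this class with the largest positive difference (0.43 ± 0.14, adjusted p = 0.0654), and Gstm3, Gstm5, Gstm6 and Gstm7 differed by -0.33 to 0.01. The classes hold genes of similar sequence, which probe sets may not fully separate.

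Among the 9 remaining cytosolic and kappa transferases Gstp3 was the one that passed. Gstp1, the pi class enzyme of airway epithelium, was 11.36 and 11.58 in TG and 11.70 to 12.15 in WT, which gave -0.47 ± 0.15 (adjusted p = 0.0563, not passed). The related Gstp3 read 6.55 and 7.04 in TG and 6.27, 6.19, 5.84 and 5.91 in WT. It was higher by 0.74 ± 0.18 (adjusted p = 0.0227), and the difference was 0.50 without TG replicate 2 (adjusted p = 0.181) and also did not pass without WT replicate 3 (0.0532). The theta class had 0 of 4 members past the threshold, led by Gstt1 (-0.44 ± 0.16, adjusted p = 0.0937). The omega class member Gsto1, a thiol transferase, differed by -0.35 ± 0.14 (adjusted p = 0.134), and Gstk1, which sits in mitochondria and peroxisomes, by -0.47 ± 0.21 (adjusted p = 0.166).

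The microsomal transferases are membrane enzymes. Mgst2, which can join glutathione to leukotriene A4, read 8.97 and 8.87 in TG and 8.003, 8.115, 8.171 and 8.096 in WT. WT arrays lay close together and both TG arrays stood clear of them, with a difference of 0.82 ± 0.11 (adjusted p = 0.00144). Mgst1, which reduces lipid peroxides and conjugates electrophiles, was level at 12.94 in TG and 12.93 in WT, with an interval from -0.26 to 0.28. Mgst3 differed by -0.33 ± 0.15 (adjusted p = 0.178).

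Glutathione peroxidases had 3 of 8 members lower and none higher, where 10.5% and 8.43% of all genes passed in these directions. Gpx8, an enzyme of the endoplasmic reticulum, read 9.05 and 8.49 in TG and 9.59, 9.28, 9.48 and 10.03 in WT. The difference was -0.83 ± 0.23 (adjusted p = 0.0361) and moved to -0.55 without TG replicate 2 (adjusted p = 0.259), the lowest array, and the call was also lost without TG replicate 1 (0.0552), WT replicate 1 (0.0787) or WT replicate 3 (0.0619). Gpx7, a close relative in the same compartment, read 7.22 and 6.95 in TG and 7.53, 7.37, 7.63 and 7.53 in WT (difference -0.43 ± 0.13, adjusted p = 0.0465). Gpx3, the secreted peroxidase of plasma, read 12.60 and 12.76 in TG and 13.36, 13.39, 13.37 and 12.87 in WT. WT replicate 4 lay near the TG arrays, and the difference was -0.57 ± 0.17 (adjusted p = 0.0479). Calls of Gpx7 and Gpx3 were lost without any 1 of 5 arrays, all but WT replicate 2 for Gpx7 and all but WT replicate 4 for Gpx3, with adjusted p up to 0.283 and 0.258. With adjustment over all probe sets, neither Gpx7 (adjusted p = 0.0675) nor Gpx3 (0.0664) passed. The widely expressed Gpx1 went the other way without passing, at 12.87 and 13.09 in TG and 12.51 to 12.75 in WT (0.34 ± 0.12, adjusted p = 0.0935). Gpx4, which protects membrane lipids, differed by -0.04 ± 0.12 (adjusted p = 0.873). Gpx2, an epithelial peroxidase, was 8.71 in WT replicate 2 and 7.76 to 7.91 in all other arrays, and the difference of -0.27 ± 0.24 did not pass (adjusted p = 0.501).

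All 4 measured members among peroxiredoxins and sulfiredoxin had positive differences, as 8951 of all 18193 genes did, and 1 passed. Prdx4, the peroxiredoxin of the secretory pathway, read 10.92 and 10.72 in TG and 10.05, 10.04, 9.97 and 10.14 in WT. The TG arrays stood clear of a narrow WT range, and the difference was 0.77 ± 0.11 (adjusted p = 0.0025), with 3 of its 4 probe sets passing as higher. Prdx2, the cytosolic form abundant in red cells, differed by 0.31 ± 0.12 (adjusted p = 0.11) and the mitochondrial Prdx3 by 0.24 ± 0.14 (adjusted p = 0.281). The dimmer Prdx2 probe set differed by -0.02 ± 0.11. Srxn1, which repairs overoxidized peroxiredoxins, read 7.67 and 7.77 in TG and 7.43 to 7.46 in WT, 0.27 ± 0.10 higher in TG and not past the threshold (adjusted p = 0.0984). Prdx1 is not given, since its probe sets carry another gene symbol as well, and Prdx5 and Prdx6 are not among the members.

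In the thioredoxin system Txn1 passed and the reductases did not. Txn1, the cytosolic thioredoxin, read 12.85 and 12.76 in TG and 12.01, 12.12, 12.01 and 11.96 in WT, a difference of 0.78 ± 0.11 (adjusted p = 0.00173). Both TG values lay above the WT values, which spanned a narrow range. The mitochondrial Txn2 differed by 0.34 ± 0.12 (adjusted p = 0.0959), and all 3 of its probe sets were higher in TG without passing. The cytosolic reductase gene Txnrd1 differed by 0.32 ± 0.17 (adjusted p = 0.226) on its brightest probe set, while a dimmer one, at 5.02 and 5.17 in TG and 4.38 to 4.52 in WT, passed with a difference of 0.66 ± 0.11 (adjusted p = 0.00701 over all probe sets). Txnrd2 and Txnrd3 differed by -0.0014 and 0.14. Txnip, which binds and inhibits thioredoxin, was 11.08 and 11.40 in TG and 11.46 to 11.97 in WT (-0.47 ± 0.17, adjusted p = 0.0939). Of the 12 thioredoxin-domain proteins Txndc16 passed as lower (-0.52 ± 0.14, adjusted p = 0.0305), a call lost without either TG array or WT replicate 1 or 3. The other 11 differed by -0.20 to 0.28, among them Txndc5, a disulfide isomerase of the endoplasmic reticulum (-0.04 ± 0.12).

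Among the 3 superoxide dismutases 1 fell, 1 rose and 1 did not pass. Sod1, the copper-zinc enzyme of the cytosol, read 12.01 and 12.19 in TG and 13.20, 12.90, 12.84 and 12.63 in WT. All WT arrays stood above both TG arrays, and the difference was -0.80 ± 0.16 (adjusted p = 0.0108), lost without TG replicate 1 (adjusted p = 0.104). All 5 probe sets of Sod1 were lower in TG and 2 passed. Sod2, the manganese enzyme of mitochondria, read 10.74 and 10.86 in TG and 10.21, 10.34, 10.12 and 10.13 in WT, and was higher by 0.60 ± 0.11 (adjusted p = 0.00836). Of its 4 probe sets 2 passed as higher, and the dimmest differed by -0.06 ± 0.12. The call of Sod2 was lost without TG replicate 2. Sod3, the extracellular enzyme prominent in lung, overlapped between groups (-0.31 ± 0.16, adjusted p = 0.218). The quinone reductase Nqo1, a widely used readout of NRF2, read 6.00 and 5.78 in TG and 6.08 to 6.31 in WT. It lay on the lower side in TG, and its difference of -0.31 ± 0.12 did not pass (adjusted p = 0.112), with Nqo2 at -0.19 ± 0.16.

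**Figure D3:**
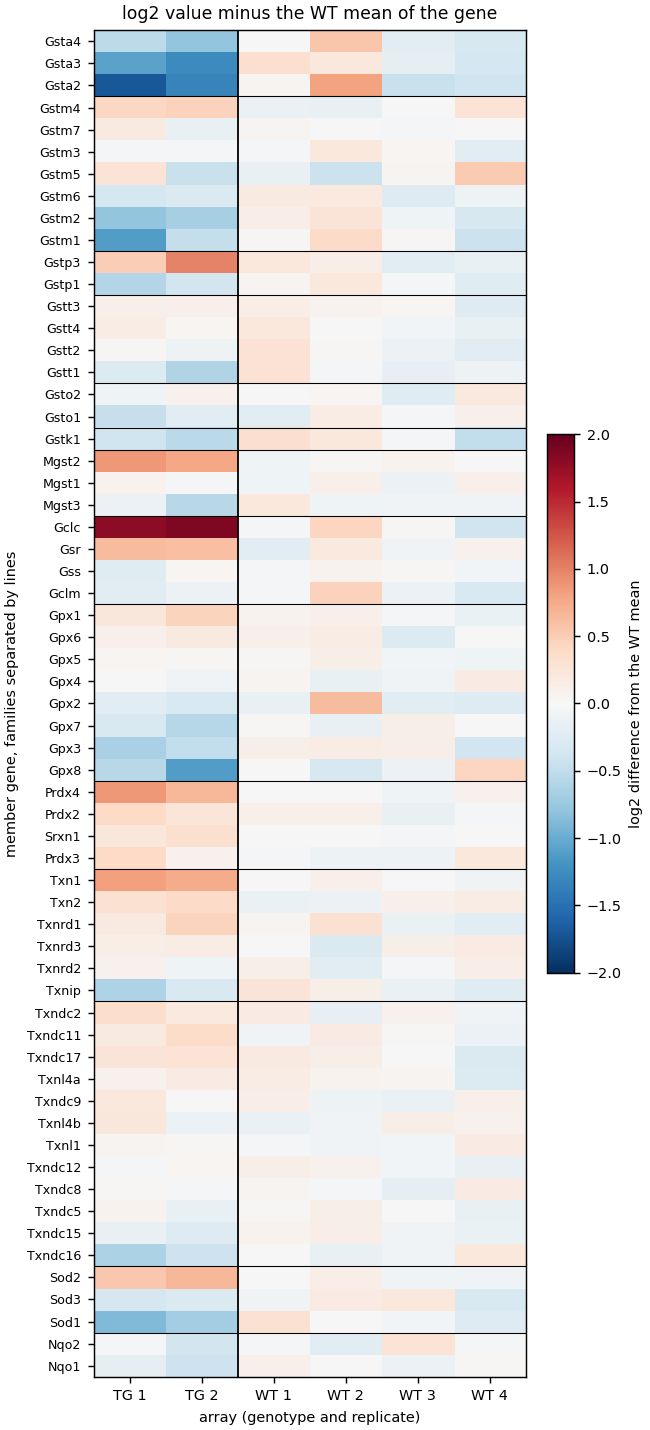
Each row is a member gene and each column an array, coloured by the log2 value minus the WT mean of that gene, with families separated by lines. Gclc is the row with the deepest red in both TG arrays and Gsta2 that with the deepest blue in both, and WT replicate 2 is red for Gsta2, Gsta4, Gpx2, Gclm and Gclc.

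Other genes of the pathway were read from lists of known genes. Of 12 genes of NRF2 and its partners 0 passed as higher and 2 as lower, namely the related factor gene Nfe2l3, which was near the floor of the array (-0.75 ± 0.22, adjusted p = 0.0424), and the small Maf partner Mafk (-0.51 ± 0.13, adjusted p = 0.0292). Nfe2l2 itself differed by -0.36 ± 0.15 (adjusted p = 0.129), its inhibitor Keap1 by -0.07 ± 0.12 (0.756) and the repressor Bach1 by -0.32 ± 0.13 (0.121). Of 22 further enzymes that NRF2 is known to raise 9 passed as higher and 3 as lower. The NADPH-producing enzymes Pgd (1.11 ± 0.13, adjusted p = 0.000826) and Me1 (1.103 ± 0.22, 0.0104) rose. Next in size were a fall of Aldh1a1, which club cells also express (-1.01 ± 0.12, 0.0011), and a rise of the cystine transporter Slc7a11. Slc7a11 brings in the cysteine that Gclc uses, and read 5.21 and 4.92 in TG and 3.99 to 4.16 in WT (0.997 ± 0.12, 0.00108), with the WT values near the floor, so its rise may be understated. Hmox1, heme oxygenase, read low in all arrays and rose by 0.42 ± 0.12 (adjusted p = 0.0401).

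Of 20 genes for glutathione breakdown, transport and precursor supply 4 passed as higher and 1 as lower. The aminopeptidases Anpep (1.65 ± 0.17, adjusted p = 0.000419) and Lap3 (1.21 ± 0.17, 0.00192) led, followed by Slc7a11, and the dipeptidase Dpep1 fell by 0.83 (SE 0.13). Of 17 glutaredoxin, methionine sulfoxide reductase, catalase and related genes 4 passed as higher and 1 as lower. The glutaredoxin Glrx, which removes glutathione from proteins, rose by 1.40 ± 0.13 (adjusted p = 0.000246), the selenium-dependent reductase Msrb1 by 1.26 ± 0.11 (0.000201) and Hmox2 by 0.57 ± 0.13 (0.0169). Catalase (Cat), which breaks down hydrogen peroxide, fell, with 10.65 and 10.42 in TG and 11.21 to 11.37 in WT (-0.76 ± 0.11, 0.00299). Among 23 genes of selenoproteins and selenium incorporation 3 rose and 1 fell, with Scly, which recovers selenium from selenocysteine, at 1.07 ± 0.10 (adjusted p = 0.000339), Sephs2 at 0.48 ± 0.13 (0.0346) and Selenom at -0.85 ± 0.22 (0.0288). Among 13 proteins related to transferases by fold or membrane family 4 rose and 3 fell, with the prostaglandin synthase Ptges at 1.14 ± 0.14 (0.00104), Alox5ap at 0.71 ± 0.12 (0.00461), and the chloride channel proteins Clic3 at -0.91 ± 0.14 (0.00339) and Clic5 at -0.70 ± 0.11 (0.00347). The shares of all genes given above, 8.43% higher and 10.5% lower, apply to these lists too. Slc7a11, Hmox1, Msrb1 and Abcc1 each stand in a pair of these lists, Aldh1a1 is also among the club cell markers and Clic5 among those of alveolar type I cells.

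**Figure D4:**
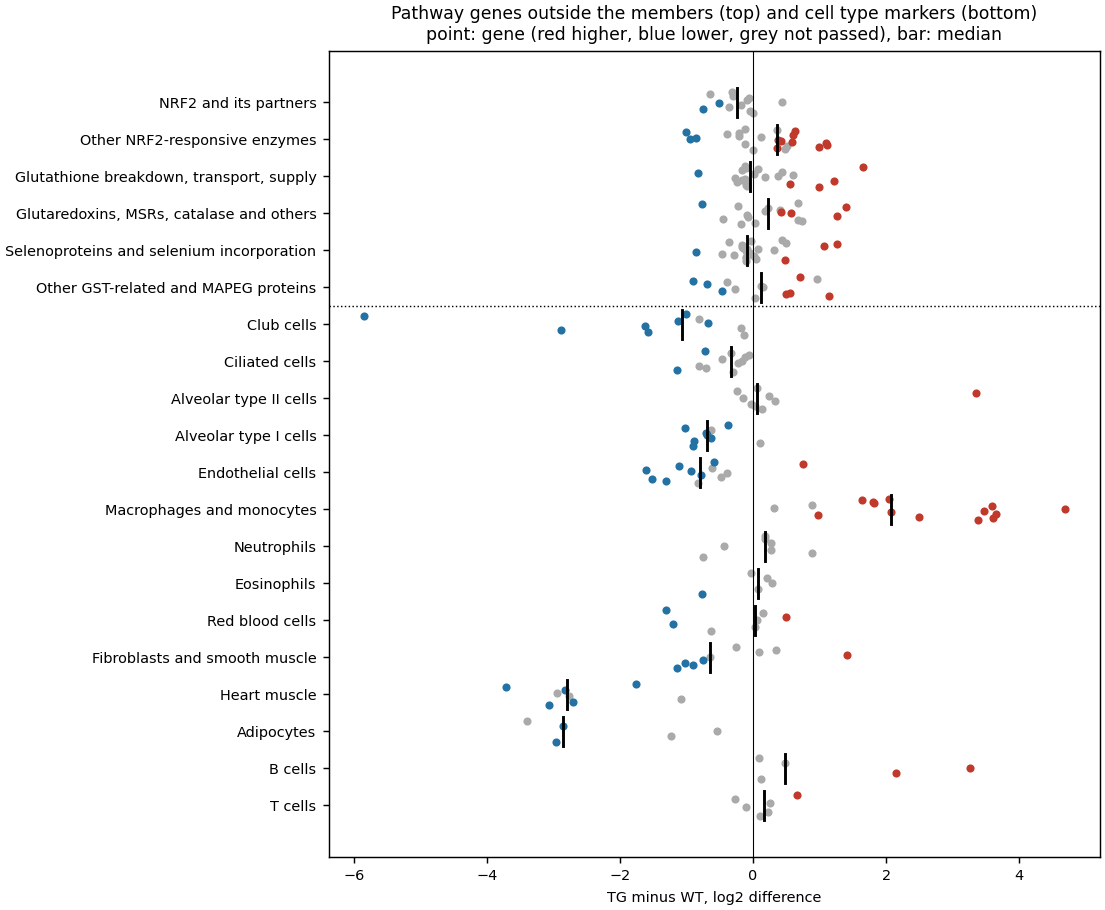
Each point is the TG minus WT log2 difference of a gene of a pathway list (above the dotted line) or a cell type marker list (below it), red if higher, blue if lower, grey if not past the threshold, with a bar at the list median. Macrophage and monocyte markers have a median of 2.07 and club cell markers one of -1.07, and the median of NRF2 and its partners is -0.24.

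Markers of several cell types moved together with the groups. Of 10 club cell markers 7 were lower and 0 higher, and their mean log2 level was 9.87 to 10.24 in TG and 11.46 to 11.82 in WT arrays. Bpifa1 had the largest fall (-5.845 ± 0.47), while the list median was -1.07. Cyp2f2, a club cell cytochrome, fell by 1.63 (SE 0.31), whereas Scgb1a1, near the top of the scale, was 14.84 and 15.03 (-0.19 ± 0.14). Upk3a was the club cell marker below the median of all values in both groups. Of 15 macrophage and monocyte markers 13 were higher and 0 lower, with mean levels of 10.59 to 10.73 in TG and 8.18 to 8.28 in WT, and none was below the median of all values. Endothelial markers had 7 of 12 lower and 1 higher (9.10 to 9.32 against 9.60 to 10.24), and fibroblast and smooth muscle markers 4 of 9 lower and 1 higher (9.60 to 9.71 against 9.68 to 10.23). Of 5 B cell markers 2 were higher and 0 lower (8.92 to 9.32 against 7.61 to 8.23 over the 5). The higher ones were Ighm and Jchain, which plasma cells also express. Alveolar type I markers had 7 of 9 lower and 0 higher (11.83 to 11.97 against 12.45 to 12.58), heart markers 5 of 8 lower and 0 higher (4.96 to 7.13 against 7.82 to 10.02), and adipocyte markers 2 of 5 lower and 0 higher (4.35 to 6.42 against 6.69 to 8.62). Alveolar type II markers had 1 of 9 higher, Lcn2, and 0 lower (13.04 to 13.05 against 12.48 to 12.71). Lcn2, which inflammation also induces, differed by 3.35 ± 0.29 (adjusted p = 0.000161), while the list median was 0.06. Ciliated cell markers had 2 of 11 lower and 0 higher (6.50 to 6.97 against 6.75 to 7.84). The levels of TG and WT overlapped for these ciliated cell markers and for the fibroblast and smooth muscle markers. They also overlapped for neutrophil markers (0 of 7 past the threshold, 6.22 to 6.50 against 6.00 to 6.54), eosinophil markers (1 of 5 lower, 3.81 to 4.10 against 3.95 to 4.06) and T cell markers (1 of 6 higher, 6.42 to 6.44 against 6.20 to 6.50). Among 7 red cell genes 1 was higher and 2 were lower (5.31 to 5.43 against 5.48 to 5.94). Of the 7 differences 4 were positive and 3 negative, with a median of 0.03. The lower genes were Alas2 and Hbb-b2, by 1.31 (SE 0.28) and 1.20 (SE 0.28), and both were highest in WT replicates 1 and 2. The part of any of these cell types in the falls and rises of the called members was not tested.

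In the authors' deposited table Gclc was the member that had a q-value under 0.05 (0.0299), where 1.88% of all probe sets did. The q-values there were 0.0521 for Gsr, 0.0901 for Sod1 and 0.0957 for Gsta3. For the other called members they ran from 0.104 (Gstm2) to 0.32 (Gstp3). Among these were Txn1 (0.118), Mgst2 (0.134) and Prdx4 (0.219), which had passed under every alternative above.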

How the data were processed

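The log2 values are the deposited RMA values of 45037 probe sets on 6 arrays; RMA is named in the submitters' processing notes, with no version. The q-value of each probe set and the log2 difference in the authors' deposited table are per the file headers, and no source used here names the test behind the q-value. The 6 single-array columns of that table match no sample label and were not used. Of the probe sets 34945 carried a single symbol, updated through Entrez IDs (34741 matched RefSeq), and 118 of them belong to the 61 members. A gene was read from its brightest probe set by mean over all 6 arrays. The contrast of TG with WT was fitted by lmFit and eBayes of limma 3.58.1 (R 4.3.3), with 4 residual degrees of freedom and adjustment over 18193 genes. The labels call the samples biological replicates; having 2 and 4 arrays limits the precision. An exact permutation test of 2 against 4 arrays cannot go below p = 0.133 (two-sided, as the doubled one-sided value over 15 splits). In simulated data of the same size 28% of genes with a true log2 change of 0.58, and 94% of those with 1, were recovered. Far fewer genes were changed there than the 3448 that passed here, which makes the adjusted threshold stricter. Small changes may be missed here, at a rate that these shares do not give.

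Members, families, pathway and marker lists and the naming rule were chosen with earlier results of these data known. The rule names every called member, the largest change of a family without one, some central enzymes, up to 4 genes of each pathway list, and in any case Nfe2l2, Keap1, Bach1, Hmox1, Cat and Slc7a11. The alternatives tried changed the low-value filter, the scaling (a repeated quantile step, or median centring), the variance moderation, array weights, the probe set per gene and the symbol update, used a replicate block, or dropped arrays. Plots were made in Python 3.11.15 using matplotlib 3.10.9.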

Additional observations from a re-analysis of the deposited data

Results flagged for a closer look

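Among the 4 WT arrays a lone array stood far from the other three for 5 of the 61 members, and chance flags about 1 in 20 groups. Gpx2 read 8.71 in WT replicate 2 and 7.81 to 7.91 in the others (gap over range 0.881). Gpx3 read 12.87 in WT replicate 4 and 13.36 to 13.39 in the others (0.925). Mgst3 read 10.47 in WT replicate 1 and 10.17 to 10.19 in the others (0.93). Srxn1 read 7.43 in WT replicate 3 and 7.45 to 7.46 in the others (0.858), a gap of a few hundredths of a log2 unit. Txnl1 read 10.88 in WT replicate 4 and 10.65 to 10.69 in the others (0.846). Of these Gpx3 was called, and without WT replicate 4 its difference was -0.69.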

How the results depend on the processing

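The 7 members called higher were 6 to 8 when WT arrays were left out (1133 to 1578 of all genes, against 1534). Without TG replicate 1 or 2 both counts were lower than with all arrays. With a 2-fold change also asked for, 1 member was called higher. The 8 called lower were 1 to 12 when arrays were left out (580 to 2016 of all genes, against 1914), and 2 with a 2-fold change. Without moderation of the variances 0 members were lower in limma's unmoderated fit after adjustment (10 at an unadjusted p under 0.05) and 6 were higher, with 1528 calls among all genes in place of 3448. With the replicate number as a block 13 were lower and 8 higher (2150 and 1609 of all genes); that fit compares TG with WT replicates 1 and 2, and the numbers share only a label, since same-numbered arrays deviated from their group means with r = -0.076 and 0.27 across genes. Without WT replicates 2 and 4 together the counts were 7 and 8 but 3 calls were lost (Gpx7, Gstp3, Txndc16) and 3 gained (Gstk1, Gstm1, Gstm4). The median difference of the members moved by less than the spread of WT arrays under all alternatives. Over 1191 values of single members under an alternative, 1099 kept their side of the threshold, 53 lost a call and 39 gained one. The sign changed in 58 of them, over 20 uncalled members such as Gss, and in 0 values of called members. Gstm1 gained a call under 12 alternatives, and Gstp1 under 7. Re-scaling moved the median of all genes by at most 0.011 on the log2 scale. Each cause was not tested, beyond the fewer arrays that leaving some out leaves. With 2 TG arrays a change may go uncalled, and size alone did not decide a call. Gstm1 at -0.80 did not pass, whereas Gpx7 at -0.43 did.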
